A study of Homo sapiens with 6 samples.

Results

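The long intergenic noncoding RNA (lincRNA) genes described here are those whose symbol is LINC followed by digits and whose mean count over 6 RNA sequencing libraries was at least 20. The counts table held 1595 genes with such a symbol among 27754 genes, 878 of them with at least 1 count, and 238 reached the mean of 20. All 238 passed the filter on low counts and were tested. The libraries came from T47D cells, a luminal-like, estrogen receptor-positive human breast cancer line grown as adherent cultures. Of these, 3 libraries were from normoxia controls (20% O2) and 3 from cells kept in a hypoxia chamber (0.5% O2, 48 h), with no other treatment or genetic change. The labels give this oxygen level, and the study's text gives another. The question was which lincRNA genes differed in level between hypoxia and normoxia.

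LincRNA genes are transcribed by RNA polymerase II from sites between protein-coding genes, and their RNAs are usually spliced and polyadenylated. Some act at their own locus on a neighbouring gene, some act elsewhere in the nucleus or in the cytoplasm, and some were later found to encode small proteins. In low oxygen, hypoxia-inducible factors bind the core sequence of the hypoxia response element and switch on coding and noncoding genes, while in luminal breast cells the estrogen receptor drives a set of lincRNAs of its own.

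The libraries held 32989104 to 89883409 counts, hypoxia replicate 3 being the deepest, and 3 counts were worth 0.0328 to 0.0969 TMM-normalized counts-per-million (CPM). The defining markers of luminal breast cells were detected in all libraries (10 of 10, summed level 11200 to 19558 CPM), and ESR1 and PGR, the estrogen and progesterone receptor genes in that list, were lower in all hypoxia libraries. GATA3, FOXA1 and XBP1 of that list were also lower in all hypoxia libraries, and its other markers overlapped between conditions. The summed level of 12 mesenchymal markers was 315 to 368 CPM in normoxia and 156 to 215 in hypoxia. That of 5 leukocyte markers was 1.505 to 1.87 CPM in normoxia and 3.46 to 4.29 in hypoxia. Of these mesenchymal markers, 7 (VIM, CAV1, CAV2, MSN, FOSL1, PLAU and SPARC) were more than 2-fold higher in replicate 3 than in both other replicates of each condition, and the other 5, with the abundant GNG11 and COL1A1 among them, were not. VIM, an intermediate filament gene, was at 12.8 CPM in normoxia replicate 3 and 11.0 in hypoxia replicate 3, against 0.177 to 0.957 in the other 4 libraries. The part of these differences in the lincRNA results was not tested. When both libraries numbered 3 were left out, 133 of the 137 calls described next kept their direction and an adjusted p under 0.05, which does not measure that part. Nothing in the labels says that replicates were separate cultures, although the study's figure legend describes its data as independent experiments. The p-values measure the spread between these libraries.

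The promoter windows of 6 genes are shown first, because these genes are among the most extreme changes of the set. For 3 of them no read was counted in any normoxia library, and the other 3 had the largest decreases. Each window covers 250 bases before to 50 bases after the 5′ end of the counted exons, read from GRCh37 and written 5′ to 3′ on the strand of the gene. Capitals mark the core of the hypoxia response element, ACGTG or GCGTG, on either strand (CACGT or CACGC on the opposite strand).
LINC01512, chr6:43858515-43858814, plus strand: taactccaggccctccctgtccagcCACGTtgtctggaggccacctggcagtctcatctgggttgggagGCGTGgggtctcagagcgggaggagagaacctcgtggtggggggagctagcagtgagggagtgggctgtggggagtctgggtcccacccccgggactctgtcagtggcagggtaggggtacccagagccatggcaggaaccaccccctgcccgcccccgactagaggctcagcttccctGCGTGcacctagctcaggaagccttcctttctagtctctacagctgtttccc
LINC02395, chr12:50305486-50305785, plus strand: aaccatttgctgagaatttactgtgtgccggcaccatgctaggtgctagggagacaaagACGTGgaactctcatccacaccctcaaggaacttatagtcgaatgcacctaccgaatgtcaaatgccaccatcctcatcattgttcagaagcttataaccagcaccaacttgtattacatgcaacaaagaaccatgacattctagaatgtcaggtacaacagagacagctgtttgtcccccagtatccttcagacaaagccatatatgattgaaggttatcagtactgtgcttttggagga
LINC01164, chr10:133622486-133622785, minus strand: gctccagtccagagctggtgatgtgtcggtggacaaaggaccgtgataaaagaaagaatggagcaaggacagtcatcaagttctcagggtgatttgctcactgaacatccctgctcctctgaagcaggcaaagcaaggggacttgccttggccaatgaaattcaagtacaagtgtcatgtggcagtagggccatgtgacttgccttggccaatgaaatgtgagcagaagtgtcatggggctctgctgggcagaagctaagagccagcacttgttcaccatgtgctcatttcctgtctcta
LINC00867, chr10:120116370-120116669, plus strand: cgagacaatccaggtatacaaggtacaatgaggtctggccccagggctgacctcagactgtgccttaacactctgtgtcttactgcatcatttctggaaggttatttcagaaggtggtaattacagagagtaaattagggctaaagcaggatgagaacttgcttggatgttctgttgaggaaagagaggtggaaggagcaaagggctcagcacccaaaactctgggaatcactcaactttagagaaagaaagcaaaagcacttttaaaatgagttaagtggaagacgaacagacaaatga
LINC01016, chr6:33864635-33864934, minus strand: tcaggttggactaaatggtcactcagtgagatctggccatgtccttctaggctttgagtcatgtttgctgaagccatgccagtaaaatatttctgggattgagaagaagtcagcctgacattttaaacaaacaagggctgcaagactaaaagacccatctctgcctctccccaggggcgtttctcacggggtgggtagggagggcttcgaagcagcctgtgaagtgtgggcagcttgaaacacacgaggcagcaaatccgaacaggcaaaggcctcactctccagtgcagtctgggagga
LINC02303, chr14:46184756-46185055, minus strand: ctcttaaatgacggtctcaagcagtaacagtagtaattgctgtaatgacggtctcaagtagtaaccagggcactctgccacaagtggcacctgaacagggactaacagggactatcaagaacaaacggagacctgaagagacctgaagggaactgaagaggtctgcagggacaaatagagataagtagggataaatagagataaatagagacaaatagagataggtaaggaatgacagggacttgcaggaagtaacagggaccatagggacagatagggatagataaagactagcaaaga
LINC01512 had 3 such cores, LINC02395 had 1, and LINC01164 and all 3 genes with large decreases had 0. Over all 27287 genes with a window, 50.4% held at least 1 core. Among lincRNA genes, a core was found in 48 of 105 windows (45.7%) of genes higher in hypoxia, 13 of 30 (43.3%) of genes lower in hypoxia and 54 of 100 (54.0%) of genes that did not pass the test. The full estrogen response element, GGTCA and its reverse complement spaced by 3 bases, was searched in the same windows and was found in 1 lincRNA window (LINC02130, which did not pass the test) and in 16 windows of all genes. These matches are descriptions of the letters in short windows, and cores outside them were not searched.

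Hypoxia raised more lincRNA genes than it lowered. At a Benjamini-Hochberg adjusted p under 0.05 (quasi-likelihood test of edgeR), hypoxia raised 107 of the 238 (45.0%) and lowered 30 (12.6%), and 101 did not pass. Over all 15657 genes tested, 30.4% were higher and 29.1% were lower. All 137 lincRNA genes that passed moved one way in all 3 pairs of libraries with the same number. Passing the test in these same libraries favours that, so it is no separate support, and the share over all genes was not computed. The median log2-fold change (hypoxia over normoxia) of the 238 genes was 0.57, against 0.028 for all genes tested, and it was 0.50, 0.40 and 0.65 in pairs 1, 2 and 3. Setting the 4 genes that had 0 counts in normoxia to their lower bounds could not move the median of 0.57, since those bounds also lay above it. With upper-quartile factors the split became 125 higher and 26 lower for lincRNA genes and 5972 higher and 3285 lower for all genes. The CPM of the conditions did not overlap for 122 lincRNA genes (51.3%) with hypoxia higher and for 38 (16.0%) with hypoxia lower, against 34.9% and 32.4% of all genes tested. Changes of at least 2-fold were called for 68 lincRNA genes (28.6%) upwards and 18 (7.56%) downwards, against 15.2% and 4.91% of all genes.

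**Figure D1:**
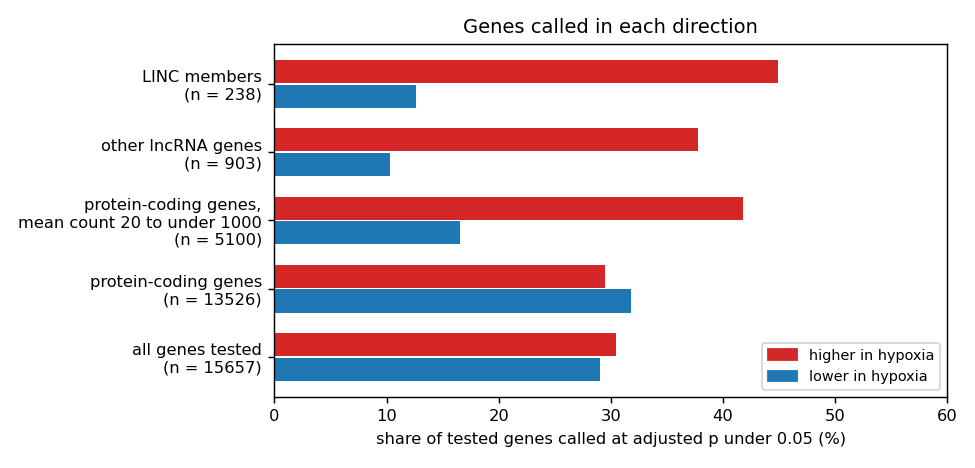
Share of tested genes (%, horizontal axis) called higher (red) or lower (blue) in hypoxia at an adjusted p under 0.05, for lincRNA genes named LINC (members) and for 4 other groups of genes. The lincRNA bars, 45.0% and 12.6%, lie nearer to those of other lncRNA genes and of coding genes of low count than to those of all coding genes.

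This imbalance was also seen in other genes of low abundance. Among the 903 other long noncoding RNA genes tested, 37.8% were higher and 10.3% were lower. Protein-coding genes as a whole were more even, with 29.5% higher and 31.8% lower of 13526 tested. However, of the 5100 coding genes with a mean count of 20 to under 1000, the range that held 228 of the lincRNA genes, 41.8% were higher and 16.5% were lower. The lincRNA genes in that range gave 45.6% and 12.7%.

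The rule on the mean count itself favours genes that are higher in 1 condition. Of the 238 genes, 48 had a normoxia mean under 20 counts, and 37 of these were higher and 0 lower in hypoxia. Another 5 had a hypoxia mean under 20, and all 5 were lower. When a mean of at least 20 counts in normoxia was required instead, 192 genes remained in the set, of which 70 were higher (36.5%) and 32 lower (16.7%), and the median log2-fold change was 0.28. Leaving out both libraries numbered 1 left 55 genes higher and 16 lower, and leaving out both numbered 2 left 17 lower.

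LincRNA genes were mostly scarce. Their median mean count was 107, 10 genes had a mean of at least 1000, and together they took 0.121 to 0.147% of all counts in normoxia and 0.163 to 0.187% in hypoxia, without overlap between the conditions. The 10 most abundant genes supplied 40.8% of these counts. Per kb of counted exon, the median level was 1.11 CPM in normoxia and 1.504 in hypoxia, against 8.52 and 8.29 for coding genes. The median lincRNA gene had 3 exon blocks and 2018.5 bases of exon. Because these are bulk libraries, fewer cells with an RNA and less RNA per cell cannot be told apart.

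**Figure D2:**
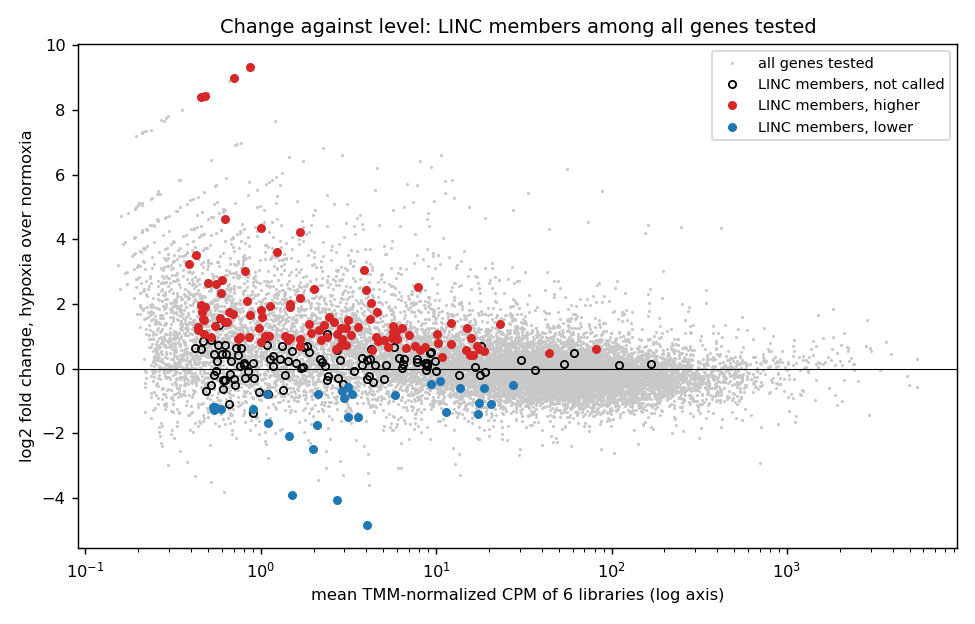
Log2-fold change (hypoxia over normoxia, vertical axis) against the mean TMM-normalized CPM of 6 libraries (log axis) for all 15657 genes tested (grey) and for the 238 lincRNA genes that were higher (red), lower (blue) or did not pass the test (open). The 4 red points at the top are fitted values of genes with 0 counts in normoxia, and the lowest blue point is LINC00867 at -4.84.

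In 4 lincRNA genes, reads were counted in hypoxia only. They were chosen after their values were seen. LINC01512 (chr6:43858765-43905944 in GRCh37) had 0 counts in all 3 normoxia libraries and 48, 79 and 173 in hypoxia replicates 1 to 3 (1.19, 2.16 and 1.89 CPM). Its mean level in hypoxia was at least 20.7-fold higher than the normoxia floor of 3 counts per library (edgeR quasi-likelihood, adjusted p = 0.000284). The gene lies on the same strand as VEGFA, the angiogenic growth factor, 105 kb away and with no other coding gene nearer, and VEGFA itself rose by 4.36 on the log2 scale, from 39.2 to 804 CPM.

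LINC02395 (chr12:50305736-50320122) had 61, 60 and 96 counts in hypoxia, LINC01164 (chr10:133604734-133622535) had 47, 30 and 70, and LINC01257 had 55, 38 and 43, all with 0 in normoxia. These levels were at least 16.6-fold, 10.8-fold and 11.3-fold higher than the floor, with adjusted p-values of 0.000268, 0.000401 and 0.00165 (edgeR quasi-likelihood). All 4 genes were chosen for 0 counts in normoxia, so the separation of their libraries was set by that choice. Their p-values are no separate support for a change. The genes remained scarce, with means of 0.916 to 1.75 CPM in hypoxia. LINC01257 lies 23.5 kb from ADGRD1, an adhesion G protein-coupled receptor gene that was also higher, with 0.0507, 0.0806 and 0 CPM in normoxia and 0.815, 0.547 and 0.284 in hypoxia. PPP2R2D, the nearest coding gene to LINC01164, did not pass the test (log2-fold change 0.19, adjusted p = 0.244, 0.0296 with the replicate block), and FAIM2 near LINC02395 had too few counts.

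A further 5 genes had few counts in normoxia and fitted increases of 10-fold or more, and they were again named for their values. LINC02348 had 2, 1 and 2 counts in normoxia and 41, 41 and 134 in hypoxia, and LINC02015 had 2, 7 and 1 against 76, 47 and 237. LINC00898 rose from 10, 7 and 1 counts to 134, 151 and 194, a log2-fold change of 4.24 ± 0.49 (SE). LINC00365 rose from 6, 11 and 3 counts to 91, 88 and 203, and LINC01732 from 1, 2 and 4 to 36, 31 and 57. In each of these 5 genes the lowest hypoxia library was above the highest normoxia library, and the adjusted p-values by edgeR quasi-likelihood ran from 0.000113 to 0.000624. Because the genes were picked for such values, neither is separate support for a change. With so few reads in normoxia, the sizes of these changes are imprecise.

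Where the mean count reached 100, the 10 genes that rose most were at 0.613 to 2.30 CPM in normoxia and reached 3.41 to 13.4 CPM in hypoxia. LINC01132 (chr1:234859789-234867390) had 1.06, 0.726 and 0.678 CPM in normoxia and 5.11, 5.80 and 9.82 in hypoxia, a log2-fold change of 3.07 ± 0.32 (SE, adjusted p = 0.000224, edgeR quasi-likelihood). LINC01270 (chr20:48909257-48931456) had 1.87, 3.25 and 1.78 CPM against 12.5, 13.3 and 14.4 (log2-fold change 2.54 ± 0.23). All hypoxia libraries were above all normoxia libraries for both genes, and for LINC01132 the hypoxia replicates were the more spread. LINC01270 shares exon bases with LINC01271 on the opposite strand, and its nearest coding gene, 100 kb away, is CEBPB, a transcription factor gene of stress and inflammation that also rose (log2-fold change 1.17).

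LINC01021 (chr5:27472399-27496508), now named PURPL and known as a p53-induced lincRNA that restrains p53, had 1.19, 1.32 and 1.26 CPM in normoxia and 7.04, 6.86 and 6.35 in hypoxia. This log2-fold change of 2.42 ± 0.16 had the smallest adjusted p of the 10 (4.41e-05). LINC01136 (chr1:203267886-203274453), now BTG2-DT, had 0.608, 0.779 and 0.452 CPM against 3.43, 3.64 and 3.15 (log2-fold change 2.46 ± 0.24). The replicates of both genes were tight within each condition and far apart between them. LINC00673 (chr17:70399463-70588945), a lincRNA described in several carcinomas, rose from 1.70, 1.56 and 1.74 CPM to 9.19, 6.34 and 5.12 (log2-fold change 2.04 ± 0.24).

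The other 5 genes of this group rose by 1.44 to 1.77 on the log2 scale. LINC01011 had the largest change of these, from 2.08 ± 0.1101 CPM to 7.08 ± 0.532 (SD, n = 3). LINC01125, LINC01978, LINC00659 and LINC00839 reached 3.70, 6.19, 4.66 and 3.85 CPM in hypoxia. LINC01125 is now annotated as the coding gene C2orf92, and LINC01978 shares exon bases with LINC01979 on the opposite strand. In all 10 genes the libraries of the conditions did not overlap, and adjusted p-values ran from 4.41e-05 to 0.00279. The 10 were ranked only among genes that passed the test and moved one way in all 3 pairs. Neither the separation nor the p-values are therefore separate support for a change.

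**Figure D3:**
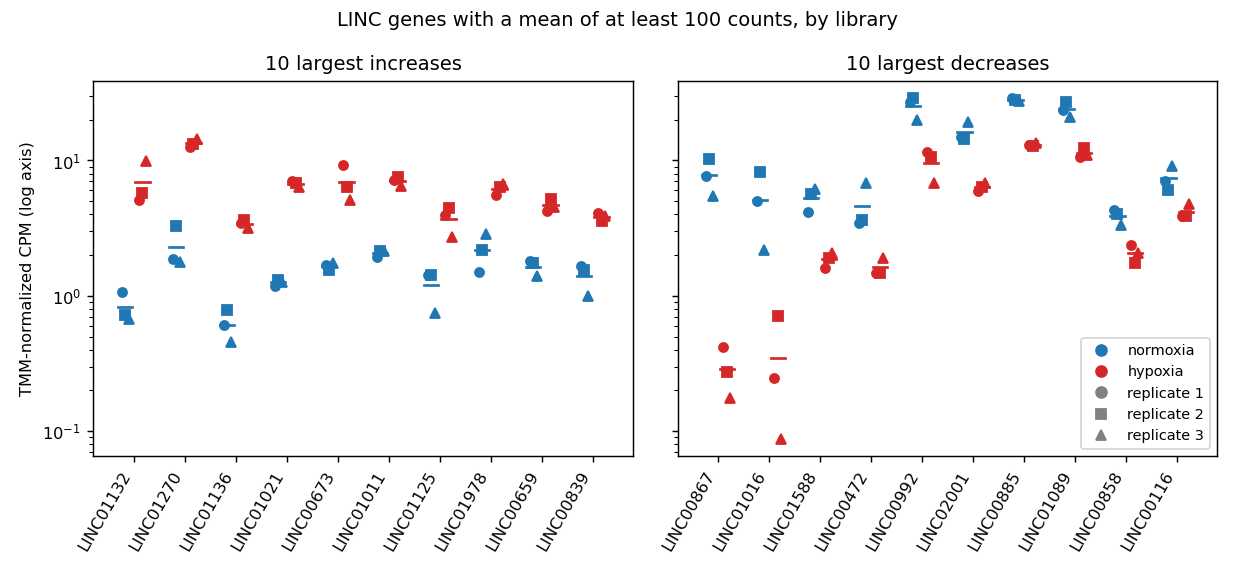
TMM-normalized CPM (log axis) of each library for the 10 lincRNA genes with the largest increases and the 10 with the largest decreases at a mean count of 100 or more, with normoxia in blue, hypoxia in red, a symbol for each replicate and a line at the mean of 3. In all 20 genes the hypoxia and normoxia points do not overlap. The genes were taken only from those that passed the test and moved one way in all 3 pairs, which favours such separation.

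The largest decrease was in LINC00867 (chr10:120116620-120118715). It had 305, 382 and 169 counts in normoxia and 17, 10 and 16 in hypoxia, or 7.73, 10.3 and 5.46 CPM against 0.420, 0.273 and 0.175. This 28.7-fold fall (log2-fold change -4.84 ± 0.38, adjusted p = 7.86e-05, edgeR quasi-likelihood) left every hypoxia library more than 10-fold below every normoxia library. FAM204A, the coding gene 14.8 kb away in head-to-head orientation, fell by 0.58 on the log2 scale.

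LINC01016 (chr6:33857288-33864684), known as a target of the estrogen receptor in breast cancer cells, had 5.04, 8.17 and 2.16 CPM in normoxia and 0.247, 0.711 and 0.0875 in hypoxia. It fell by 4.07 on the log2 scale (SE 0.74, adjusted p = 0.00224, edgeR quasi-likelihood). Replicate 3 was the lowest library in both conditions, so that the 3 pairs fell together from different starting levels. LINC02303 (chr14:46175461-46184805), a gene with a mean under 100 counts, fell from 73, 93 and 129 counts to 8, 6 and 17 (log2-fold change -3.92 ± 0.38). LINC01695 and LINC00565 (now SWINGN) were the other genes with a fall of at least 4-fold, at log2-fold changes of -2.50 and -2.09. LINC02303, LINC01695 and LINC00565 were named after their values were seen.

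The other 8 of the 10 largest decreases fell by 0.82 to 1.51 on the log2 scale. LINC01588 had 4.16, 5.64 and 6.17 CPM in normoxia and 1.61, 1.89 and 2.08 in hypoxia, and it shares exon bases with LINC01599 on the same strand. LINC00992 fell from 26.9, 28.7 and 20.0 CPM to 11.5, 10.6 and 6.85, with replicate 3 again the lowest of each condition. LINC00885 was the most even, at 28.9, 27.9 and 27.5 CPM against 12.99, 12.8 and 13.5 (log2-fold change -1.10 ± 0.08, adjusted p = 7.76e-05). None of these genes overlapped between conditions. They too were ranked only among genes that passed the test and moved one way in all 3 pairs, so this is no separate support.

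LINC02001, now SNHG30 and host of the small nucleolar RNA SNORD7, fell from 16.2 ± 2.74 to 6.39 ± 0.455 CPM (SD, n = 3). LINC01089, described in breast cancer as a suppressor of invasion, fell from 23.9 ± 3.10 to 11.3 ± 0.985 CPM, and SETD1B, a histone methyltransferase gene 1.25 kb away in head-to-head orientation, fell with it (log2-fold change -0.80). LINC00858 fell by 0.91 on the log2 scale (adjusted p = 0.00490, edgeR quasi-likelihood). Its adjusted p was 0.0579 without both libraries numbered 1 and 0.0580 without both numbered 2.

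The 5 lincRNA genes of highest level per kb of exon had log2-fold changes of -0.52 to 0.54. LINC01578, now CHASERR, a lincRNA known to restrain its neighbour CHD2 in cis, was highest at 54.0 CPM per kb. It had 106, 120 and 92.5 CPM in normoxia and 127, 122 and 92.9 in hypoxia, so that the conditions overlapped (log2-fold change 0.10, adjusted p = 0.561). CHD2, a chromatin remodeller gene 1.57 kb downstream, had a change of 0.01 on the log2 scale (adjusted p = 0.950). LINC00665 (17.2 CPM per kb) also overlapped between conditions, with a log2-fold change of -0.03 that became 0.13 with upper-quartile factors and, in the fits without normoxia replicate 3 and without hypoxia replicate 3, 0.035 and 0.0037.

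LINC00173 (30.6 CPM per kb) had 49.99, 64.9 and 39.0 CPM in normoxia and 63.7, 82.4 and 67.8 in hypoxia. The libraries overlapped and the log2-fold change of 0.47 did not pass the test (adjusted p = 0.0540). It passed in 8 alternative fits, with an adjusted p of 0.00166 with the replicate number as a block and 0.0113 without normoxia replicate 2. LINC00467 (24.8 CPM per kb) rose by 0.54 on the log2 scale and LINC00998 (24.2 CPM per kb) fell by 0.52. LINC00674, the gene with the most counts of all (10.7% of the lincRNA counts), had 161, 167 and 153 CPM in normoxia and 189, 180 and 161 in hypoxia. Its log2-fold change of 0.14 did not pass (adjusted p = 0.176, 0.0493 with the block and 0.0409 without hypoxia replicate 3), while KPNA2, an importin gene 54.7 kb away, fell by 1.60.

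Some genes named LINC are now known to encode small proteins, and 5 of the 12 on a list of these were members, with 1 higher and 2 lower in hypoxia. LINC00116 encodes mitoregulin (MTLN), a microprotein of the inner mitochondrial membrane that favours fatty acid oxidation. It had 7.09, 6.10 and 9.05 CPM in normoxia and 3.88, 3.88 and 4.803 in hypoxia, a log2-fold change of -0.82 ± 0.19 (adjusted p = 0.00684, edgeR quasi-likelihood, 0.0768 without both libraries numbered 1). LINC00998, which encodes the small membrane protein SMIM30, fell from 31.8, 33.6 and 31.1 CPM to 22.8, 21.4 and 23.1. LINC00467, reported to encode a mitochondrial microprotein that binds ATP synthase, had 15.8, 17.9 and 12.1 CPM against 22.0, 22.4 and 22.5, and its adjusted p of 0.0117 became 0.0825 without both libraries numbered 1. All 3 genes were separated between conditions.

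LINC00094, now BRD3OS, overlaps BRD3 on the opposite strand, and its change of 0.15 on the log2 scale did not pass (adjusted p = 0.153, 0.0455 with the replicate block and 0.0418 without hypoxia replicate 3). LINC00862 did not pass either (log2-fold change 0.64, adjusted p = 0.210). Current annotation lists 10 of the 238 genes as protein-coding in RefSeq or GENCODE, of which 6 rose, 2 fell and 2 did not pass. The shares over all 238 were 45.0% and 12.6%, and over all genes tested 30.4% and 29.1%. Without the 10 genes listed as protein-coding, 101 lincRNA genes were higher and 28 were lower.

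Of 3 lincRNA genes linked to estrogen signalling, 2 were lower and 1 was higher in hypoxia. LINC01016 is described above. LINC00472, whose level is known to go with estrogen receptor status in breast tumours, had 3.47, 3.601 and 6.85 CPM in normoxia and 1.48, 1.48 and 1.90 in hypoxia (log2-fold change -1.497 ± 0.30, adjusted p = 0.00365, edgeR quasi-likelihood). LINC00160 moved the other way, from 0.279, 0.188 and 0.517 CPM to 0.766, 1.07 and 2.19 (log2-fold change 2.09 ± 0.51, adjusted p = 0.00888). In both genes replicate 3 was the highest library of each condition, and the conditions did not overlap. ESR1 went from 256, 257 and 302 CPM in normoxia to 75.3, 74.2 and 74.3 in hypoxia, and its part in these changes was not tested.

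A list of 22 lincRNA genes described in cancer held 9 members, of which 7 rose and 0 fell, while 2 did not pass, LINC00958 and LINC00665. Of all members 45.0% rose and 12.6% fell, and of all genes tested 30.4% and 29.1%. This list, like the others, was chosen with earlier results of these data known. It leaves out LINC01089, described above in breast cancer, which fell, so the split depends on what the list holds. LINC00174 rose most after LINC00673, from 12.7, 15.1 and 10.6 CPM to 33.3, 36.96 and 30.7 (log2-fold change 1.39 ± 0.14, adjusted p = 0.000206, edgeR quasi-likelihood). LINC00963 rose from 10.9 ± 1.33 to 20.8 ± 3.00 CPM and LINC00662 from 3.85 ± 0.736 to 7.37 ± 0.714 (SD, n = 3), by 0.93 and 0.94 on the log2 scale. LINC01234, LINC00312 and LINC00339 rose by 1.21, 0.60 and 0.42. In all 7 genes the conditions did not overlap.

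Some of these smaller increases did not pass with fewer libraries. LINC00312 had an adjusted p of 0.0172, which became 0.0513 without normoxia replicate 2. Without both libraries numbered 1, LINC00662, LINC01234, LINC00339 and LINC00312 had adjusted p-values of 0.0556, 0.102, 0.129 and 0.122, and without both numbered 2 LINC00339 and LINC00312 had 0.0701 and 0.117. LINC00958 had 1.39, 1.77 and 2.81 CPM in normoxia and 1.66, 1.39 and 4.06 in hypoxia, and replicate 3 set the direction of its change, since the log2-fold change of 0.29 was -0.38 without hypoxia replicate 3. The coding gene nearest to it, RASSF10, had 0.0253, 0.134 and 0 CPM in normoxia and 2.25, 1.75 and 1.76 in hypoxia. At the other end of the range, the 3 genes just above the mean of 20 counts were LINC01611, LINC00862 and LINC01918, with log2-fold changes of -0.70, 0.64 and 1.19. LINC01918 alone of these passed (adjusted p = 0.0460), and it no longer passed in 8 of the 15 alternative fits, among them DESeq2 (0.0709) and the fit without hypoxia replicate 2 (0.148).

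Genes higher and lower in hypoxia were spread over the genome. The lincRNA genes lay on all chromosomes listed except Y, with most on chromosome 1 (29 genes, 12 higher and 5 lower), chromosome 3 (18 genes, 10 higher and 2 lower) and chromosome 2 (17 genes, 7 higher and 2 lower). On chromosome 9, 5 of 10 genes were higher and 0 were lower, and on chromosome 15, 2 of 8 were higher and 0 were lower. Over all chromosomes the lincRNA shares were 45.0% and 12.6%, and those of all genes tested 30.4% and 29.1%. A single locus on a primary chromosome could be given to 235 genes. Within 100 kb of another member there were 22 genes.

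In 4 places, neighbouring lincRNA genes both passed the test, and they moved the same way each time. Of all lincRNA genes that passed, 78.1% were higher, so a shared direction is common among them wherever they lie. LINC01036 and LINC01037, 83.4 kb apart on chromosome 1, fell by 1.26 and 1.18 on the log2 scale, and PLA2G4A, the phospholipase A2 gene nearest to both, fell by 0.80. LINC00910 and LINC00854, 66.2 kb apart on chromosome 17, rose by 1.07 and 2.33. LINC00526 and LINC00667, 0.070 kb apart on opposite strands of chromosome 18, rose from 0.182 and 1.21 CPM to 0.734 and 2.67. LINC01426 and LINC00160, 8.64 kb apart on chromosome 21 beside RUNX1, rose by 1.55 and 2.09, and RUNX1, a transcription factor gene, rose by 0.43.

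Not all of these calls were firm. For LINC00667 the adjusted p was 0.0420 (edgeR quasi-likelihood) and became 0.0779 without normoxia replicate 1, 0.141 without hypoxia replicate 1 and 0.0787 without hypoxia replicate 2. Without both libraries numbered 1, LINC00667, LINC00526, LINC01426, LINC01036 and LINC01037 had adjusted p-values of 0.198, 0.0806, 0.0765, 0.0680 and 0.106, and without both numbered 2 LINC00667 and LINC01037 had 0.0502 and 0.0590. In 6 other places only 1 of the 2 neighbours passed. LINC01697, which overlaps LINC01695 in span, had 1.44, 1.99 and 0.420 CPM in normoxia and 0.618, 0.629 and 0.328 in hypoxia, with an adjusted p of 0.0573 (0.00795 with the replicate block and 0.00427 without normoxia replicate 3). LINC01977, LINC01237, LINC02482, LINC02036 and LINC00115 had log2-fold changes of -0.22 to 0.24 beside neighbours that passed.

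The nearest protein-coding gene lay a median of 20.0 kb from the lincRNA gene, and spans overlapped in 12 cases. For 185 of the 235 genes this neighbour could be tested. Both genes passed the test in 69 pairs, and in 42 of these they moved the same way, 29 both higher and 13 both lower. In 22 pairs the lincRNA gene was higher and its neighbour lower, and in 5 pairs the reverse was found. The pairs named in this report in which both genes passed all moved the same way. They do not represent the 69 pairs, and those with opposite directions are not named. Of the tested neighbours of higher lincRNA genes, 35.4% were higher and 26.8% were lower, against 33.0% and 29.2% of all 185 tested neighbours and 29.5% and 31.8% of all coding genes. Of the 25 tested neighbours of lower lincRNA genes, 20.0% were higher and 52.0% were lower. Across the 185 pairs, log2-fold changes had a Pearson's r of 0.33 and a Spearman's rho of 0.20, and without the 3 pairs whose lincRNA gene had 0 counts in normoxia these were 0.17 and 0.17 (n = 182). Pairs share the same 6 libraries, and some share a neighbour, so this is a description across genes.

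**Figure D4:**
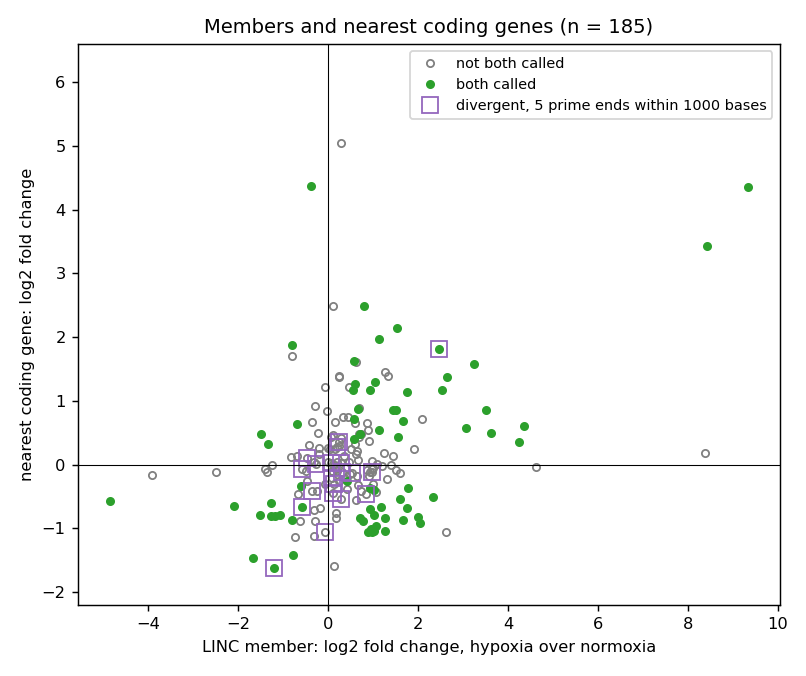
Log2-fold change (hypoxia over normoxia) of the nearest coding gene (vertical axis) against that of the lincRNA gene (horizontal axis) for 185 pairs, with pairs in which both genes passed the test in green and divergent pairs boxed. All 4 quadrants hold green points, 42 in the quadrants of shared direction and 27 in the others.

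The share of pairs that moved the same way did not fall steadily with distance. At gaps of up to 10 kb, 14 of 22 called pairs moved the same way, at gaps over 10 to 100 kb it was 18 of 35, and over 100 kb it was 8 of 10, with 2 of 2 for overlapping spans. Neighbours that changed strongly were found beside lincRNA genes that did not. S100P, a calcium-binding protein gene, rose by 2.49 beside LINC02482 (log2-fold change 0.11, adjusted p = 0.603, edgeR quasi-likelihood, with a change of -0.027 without normoxia replicate 3). LINC01291, 15.8 kb from the hexokinase gene HK2, had 4, 2 and 2 counts in normoxia and 23, 26 and 78 in hypoxia (log2-fold change 3.23 ± 0.39), and HK2 rose by 1.58. LINC01291 was chosen after its values were seen.

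Divergent pairs, with 5′ ends within 1000 bases on opposite strands, numbered 20. Of these lincRNA genes 3 were higher and 3 were lower, and of their partners 2 were higher and 5 were lower. Shares over all lincRNA genes were 45.0% and 12.6%, and over all coding genes tested 29.5% and 31.8%. Both genes of a divergent pair passed in 3 pairs, each in the same direction. LINC01136 and BTG2, an antiproliferative gene 0.210 kb away, rose by 2.46 and 1.82 on the log2 scale, BTG2 going from 16.1 to 56.7 CPM. LINC01521 and PATZ1, a zinc finger transcription factor gene 0.495 kb away, fell by 0.59 and 0.66. The adjusted p of LINC01521 was 0.0535 without both libraries numbered 2.

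The other pair was at low level. LINC01351 (now BRINP3-DT) and BRINP3 fell by 1.20 and 1.63, with BRINP3 going from 0.717 to 0.223 CPM. LINC01351 had 27, 23 and 32 counts in normoxia and 13, 6 and 42 in hypoxia, and its adjusted p of 0.0306 was 0.0553, 0.0860, 0.0849 and 0.0797 without normoxia replicate 1, normoxia replicate 3, hypoxia replicate 1 and hypoxia replicate 2, and 0.131 and 0.0801 without both libraries numbered 1 and both numbered 2. LINC01134 rose by 0.97 (adjusted p = 0.0600 without both libraries numbered 3) beside C1orf174, which did not pass (log2-fold change -0.12, adjusted p = 0.353). LINC00894 rose by 0.85 beside CXorf40B, whose change of -0.46 on the log2 scale did not pass (adjusted p = 0.0702) but passed as lower with the replicate block (0.0108). Because the counts near shared starts depend on strand, and the strand setting of the counting is not stated in the sources used here, reads of such pairs may not be fully separated. Exon bases were shared with another gene by 27 of the 238 lincRNA genes, 11 of which were higher and 1 lower. All 238 together gave 45.0% and 12.6%, and all genes tested 30.4% and 29.1%.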

How the data were processed

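RNA sequencing was performed on 3 normoxia and 3 hypoxia libraries of T47D cells. Per the labels and the study's methods, the authors made stranded mRNA libraries, checked reads with FastQC 0.11.5, aligned them to GRCh37 (hg19) with STAR 2.5.2a, and deposited raw counts per RefSeq gene from featureCounts 1.5.1. The deposited counts are not normalized, and strand and multi-mapping settings are not given in the sources used here. Groups and replicate numbers came from the sample titles. Genes were kept by filterByExpr (minimum count 10, total 15), TMM-normalized, and tested with edgeR 4.0.16 (R 4.3.3) by the quasi-likelihood test with condition as the only term, adjusted over 15657 genes. The study names edgeR's exact test and calls its hypoxia and normoxia samples paired. The main test leaves pairing out, and with the replicate block 127 lincRNA genes were higher and 38 lower. The exact test was an alternative, as were DESeq2 1.42.0, other factors, no filter, the replicate block, left-out libraries and thresholds. The script was tested on simulated counts. CPM are TMM-normalized, and ± gives the SD of 3 libraries or the SE of a fitted change. Depth ranged from 32989104 to 89883409 counts over the libraries, and floors of 3 counts cover counting error only.

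Deviations from the condition means correlated between same-numbered libraries (0.338, 0.422 and 0.575 for numbers 1, 2 and 3 across genes), so the numbers were taken as pairs. Pair medians used a pseudocount of 0.1 CPM. The closest replicates differed by more than sampling noise (chi-square 6.09 per degree of freedom). Loci came from the exon columns of the files, and no gene ended beyond its GRCh37 chromosome. The nearest coding gene had the smallest gap between spans. Biotypes came from GENCODE v44 lifted to GRCh37 and from RefSeq. Named lincRNA genes included the 10 largest changes each way where the mean count reached 100. These were taken only from genes that passed the test and moved one way in all 3 pairs. Also named were the 5 highest per kb, members of the lists and those nearest the mean of 20. So were those within 100 kb of another that passed, plus genes marked as chosen after their values were seen. Members and lists were chosen with earlier results of these data known. The promoter window of 1 gene is not reported here.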

Additional observations from a re-analysis of the deposited data

How the results depend on the processing

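The 107 higher and 30 lower lincRNA genes, their median log2-fold change of 0.57 and the 42 same-way neighbour pairs were recomputed under the alternatives that bear on each, and the lincRNA median was above 0 wherever it was recomputed. Upper-quartile factors moved the median of all genes by 0.16, raised the lincRNA median to 0.72 (0.54 above that of all genes) and gave 5972 higher and 3285 lower genes of all genes in place of 4765 and 4551. With the replicate block, 127 lincRNA genes were higher, 38 were lower and 60 pairs moved the same way. All 137 lincRNA calls were kept, and besides the changes given above no call of a named lincRNA gene changed with the block. Leaving out libraries gave 55 to 124 higher, 16 to 38 lower, medians of 0.46 to 0.64 and 16 to 62 same-way pairs, the lowest counts without both libraries numbered 1. A threshold of 0.01 left 26 same-way pairs. A change of at least 2-fold left 68, 18 and 12, and a mean of at least 100 counts left 55, 18 and 20 with a median of 0.41. Among alternatives chosen after seeing the data, a mean of at least 20 counts in normoxia gave 70 higher and a median of 0.28. LINC00665 changed sign with upper-quartile factors (0.13). With libraries left out, log2-fold changes that did not pass ranged from -0.38 to 0.62 for LINC00958, -0.095 to 0.085 for LINC00665, -0.028 to 0.49 for LINC00115, -0.35 to 0.028 for LINC01237 and -0.027 to 0.23 for LINC02482. Of 990 values for 66 named genes, 923 kept direction and side of the threshold, 36 lost significance, 22 gained it and 9 changed sign. Depth limits genes near 20 counts most, where a few reads set the fold.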

Other observations

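Long noncoding RNA genes with other names were read from a list of 35, of which 31 could be tested, with 17 higher, 8 lower and 6 that did not pass. Among all genes tested 30.4% were higher and 29.1% lower, and among the 903 other long noncoding RNA genes 37.8% and 10.3%. MIR210HG, the host of the hypoxia-induced microRNA miR-210, rose from 5.53 ± 0.605 to 34.4 ± 1.44 CPM (SD, n = 3, log2-fold change 2.64, adjusted p = 1.59e-05, edgeR quasi-likelihood). HIF1A-AS2, antisense to the gene of the hypoxia-inducible factor subunit, rose by 3.14, the imprinted H19 by 2.07 and NEAT1, the scaffold of paraspeckles, by 0.99. Small nucleolar RNA hosts were divided, since GAS5, ZFAS1, SNHG1, SNHG5, SNHG6, SNHG7, SNHG8 and SNHG12 rose by 0.21 to 1.495 while SNHG3 fell by 1.35, and SNHG15 did not pass (log2-fold change -0.31, adjusted p = 0.0588, 0.0402 with the replicate block). DSCAM-AS1, an estrogen receptor-driven RNA of luminal breast cancer, fell from 506 ± 60.03 to 142 ± 33.7 CPM, and DANCR and MIR22HG fell by 1.24 and 1.60. MALAT1 did not pass (log2-fold change 0.84, adjusted p = 0.130), but passed with the replicate block (8.94e-06).

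Below the mean of 20 counts, 39 further LINC genes could be tested, of which 16 were higher and 3 were lower in hypoxia. Genes this scarce can pass the filter on low counts through 1 condition alone, which favours genes that differ. For comparison, 30.4% of all genes tested were higher and 29.1% lower. Coding genes with a mean count of 20 to under 1000 gave 41.8% and 16.5%. Another 1318 LINC genes could not be tested, 717 of these with 0 counts in all libraries. The genes just under the mean were LINC00704, LINC01715 and LINC01301. LINC00704 had 0, 1 and 6 counts in normoxia and 18, 10 and 84 in hypoxia, and LINC01301 had 7, 6 and 1 against 24, 25 and 54.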
